A study of Mus musculus with 2 samples.

Results

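The genes of the NF-kB subunits and of their inhibitors were examined in a STARR-seq map of reporter activity in activated mouse T helper 1 (Th1) cells. Each region that the authors listed was given to the gene with the nearest protein-coding transcription start, within 100 kb of the region's centre, and regions given to Nfkb1, Nfkb2, Rel, Rela, Relb, Nfkbia, Nfkbib, Nfkbid, Nfkbie or Nfkbiz were kept. This gave 17 of the 14994 listed regions, and 9 of the 10 genes had at least 1. Over the genome, 9401 of 21862 protein-coding genes (43.0%) had at least 1 listed region. Listed regions were 13.1% of the 114722 that the authors tested, a number worked out from the deposited p-values and adjusted p-values.

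NF-kB is a family of dimeric transcription factors that switch on genes after T cell receptor, cytokine and danger signals. The p50 and p52 subunits are cut from the longer products of Nfkb1 and Nfkb2, and RelA, RelB and c-Rel carry the domain that activates transcription. Inhibitor of kappa B (IkB) proteins hold the dimers in the cytoplasm until IkB kinase marks them for destruction. Several of these inhibitor and subunit genes are themselves known targets of NF-kB, and the best known of these loops runs through Nfkbia. In T cells the pathway is engaged by CD3 and CD28, the receptors through which these cultures were stimulated.

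In STARR-seq, genomic fragments are carried in a reporter where they can drive their own transcription, and the share of each fragment in the RNA output is set against its share in the DNA input. Both libraries came from primary Th1 cells of C57BL/6NJ mice that carried the reporter as an episome after transient transfection, with fragments of 200 to 400 bp and 30 ug of nucleic acid. The cells had received interleukin-2 and interleukin-12 p70 (both 10 ng/mL) and an antibody to interleukin-4 (2 ug/mL) for 4 days, and for 3 days antibodies to CD3e at 0.25 ug/mL together with CD28 antibody at 1 ug/mL. Some of these doses could be read in the label of only 1 library. Sex was not collected, age was unknown, and the labels gave both libraries, called biological replicates, 1 donor identifier. There was 1 group, with no unstimulated or other cell type beside it.

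Every effect and p-value was the authors' own. The deposited table combined both libraries into 1 signed effect per region with a p-value and an adjusted p (q), so no spread between replicates could be given for any region. The log base of the effect and its direction were unstated, and a positive effect is read here as more RNA output than DNA input. The table stops at an adjusted p of 0.01, so a gene without a region had none past that threshold or none tested. A reporter on an episome measures a fragment outside its own chromosome, and levels of the genes themselves were not measured. The Th1 identity of the cells could therefore not be checked against marker genes here.

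The stretches below were chosen because they hold most of the NF-kB consensus sites found in the 17 regions, in capitals, and are taken from the GRCm38 (mm10) assembly on the strand of the gene. The consensus is the standard degenerate NF-kB motif, searched on both strands, with overlapping matches joined into 1 site. These stretches all come from regions of positive effect. The sites in negative regions, at the starts of Nfkb1 and Relb, are given further below as letters only. The Nfkbia stretch is the 278 bp just upstream of the start (chr12:55492648-55492925, minus strand), and the Nfkbia intron 1 stretch lies inside the gene (chr12:55491730-55492029, minus strand). The intron 1 stretch is named for the centre of its region, and both its sites are in the intron. The name does not place every base of the stretch there. The Nfkbie stretch ends at the base before the gene's first annotated base (chr17:45555501-45555702, plus strand). The other 3 stretches are from intron 1 of Nfkb2 (chr19:46305252-46305551, plus strand), from intron 1 of Nfkbid (chr7:30422057-30422356, plus strand) and from beyond the 3′ end of Rela (chr19:5648801-5649100, plus strand). The site beside the Nfkbib start (chr7:28766497-28766526, minus strand) and an upstream site of Nfkb2 (chr19:46304716-46304745, plus strand) are given as 30 bases each. The Nfkb2 site is upstream of the nearest protein-coding start but inside the gene, in an exon of a longer transcript.
Nfkbia upstream: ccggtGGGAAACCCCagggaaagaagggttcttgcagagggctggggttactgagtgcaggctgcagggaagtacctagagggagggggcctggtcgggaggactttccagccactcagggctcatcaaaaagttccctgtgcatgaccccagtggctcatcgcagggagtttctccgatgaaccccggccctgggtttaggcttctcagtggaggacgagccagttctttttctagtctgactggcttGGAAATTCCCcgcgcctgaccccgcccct
Nfkbia intron 1: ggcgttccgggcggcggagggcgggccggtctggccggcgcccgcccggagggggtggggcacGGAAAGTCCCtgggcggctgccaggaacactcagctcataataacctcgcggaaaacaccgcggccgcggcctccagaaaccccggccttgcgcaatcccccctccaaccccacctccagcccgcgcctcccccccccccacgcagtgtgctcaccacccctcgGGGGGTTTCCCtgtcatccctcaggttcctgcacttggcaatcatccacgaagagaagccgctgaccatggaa
Nfkbie upstream: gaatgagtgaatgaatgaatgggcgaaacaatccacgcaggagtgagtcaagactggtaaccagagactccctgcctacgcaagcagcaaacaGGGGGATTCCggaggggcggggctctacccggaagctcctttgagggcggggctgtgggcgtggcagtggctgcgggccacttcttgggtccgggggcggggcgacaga
Nfkb2 intron 1: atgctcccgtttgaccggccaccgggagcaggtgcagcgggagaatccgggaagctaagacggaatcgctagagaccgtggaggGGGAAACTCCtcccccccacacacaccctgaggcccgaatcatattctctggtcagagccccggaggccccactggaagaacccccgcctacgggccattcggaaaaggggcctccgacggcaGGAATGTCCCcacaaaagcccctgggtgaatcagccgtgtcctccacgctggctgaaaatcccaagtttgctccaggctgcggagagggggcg
Nfkbid intron 1: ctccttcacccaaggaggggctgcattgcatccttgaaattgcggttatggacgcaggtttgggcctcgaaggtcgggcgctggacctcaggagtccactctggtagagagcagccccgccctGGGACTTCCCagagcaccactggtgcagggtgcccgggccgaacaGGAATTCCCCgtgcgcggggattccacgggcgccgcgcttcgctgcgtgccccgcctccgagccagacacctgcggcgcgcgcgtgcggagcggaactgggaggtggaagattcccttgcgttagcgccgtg
Rela downstream: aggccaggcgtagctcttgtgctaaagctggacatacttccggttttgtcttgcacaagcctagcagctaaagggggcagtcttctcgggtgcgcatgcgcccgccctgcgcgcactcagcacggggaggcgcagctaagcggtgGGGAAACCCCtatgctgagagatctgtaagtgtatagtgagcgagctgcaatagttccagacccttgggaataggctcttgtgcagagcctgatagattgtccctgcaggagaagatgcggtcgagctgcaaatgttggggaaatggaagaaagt
Nfkbib start: ggggcgtgttGGGGAATTCCCgatagggcg
Nfkb2 upstream: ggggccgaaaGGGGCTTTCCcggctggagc

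Of the 17 regions, 13 had a positive and 4 a negative effect. The positive share was 76.5% (Wilson 95% interval 52.7 to 90.4, counting error over regions only), where 80.7% of all listed regions on chromosomes 1 to 19, X and Y were positive. The median effect was 0.67 (95% interval from order statistics 0.61 to 0.81), and that of all 14973 regions on these chromosomes was 0.73. Both intervals count regions as independent, though 5 of the 17 were given to Nfkbia and 4 to Nfkb1. Neither holds any spread between libraries. Effects ran from -2.09 to 1.44. The positive regions had a median of 0.75 against 0.80 over all positive regions, and the negative ones -1.03 against -1.07 over all negative regions. In the size and the direction of their effects the regions thus lay near the background.

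A region was called a promoter when its centre lay within 1000 bp of any annotated transcription start, and distal otherwise. By this rule 11 regions were promoters (64.7%, against 56.0% of all listed regions) and 6 were distal, and with only the outermost start of each gene 52.9% were promoters, against 48.0%. Of the promoters 9 were positive, where the background over all listed promoter regions was 75.8%, and of the distal regions 4 were positive, where it was 87.0%. There were 9 regions centred within 1000 bp of their own gene's protein-coding start, at 7 genes. The genes without such a region were Rel, Rela and Nfkbiz.

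**Figure D1:**
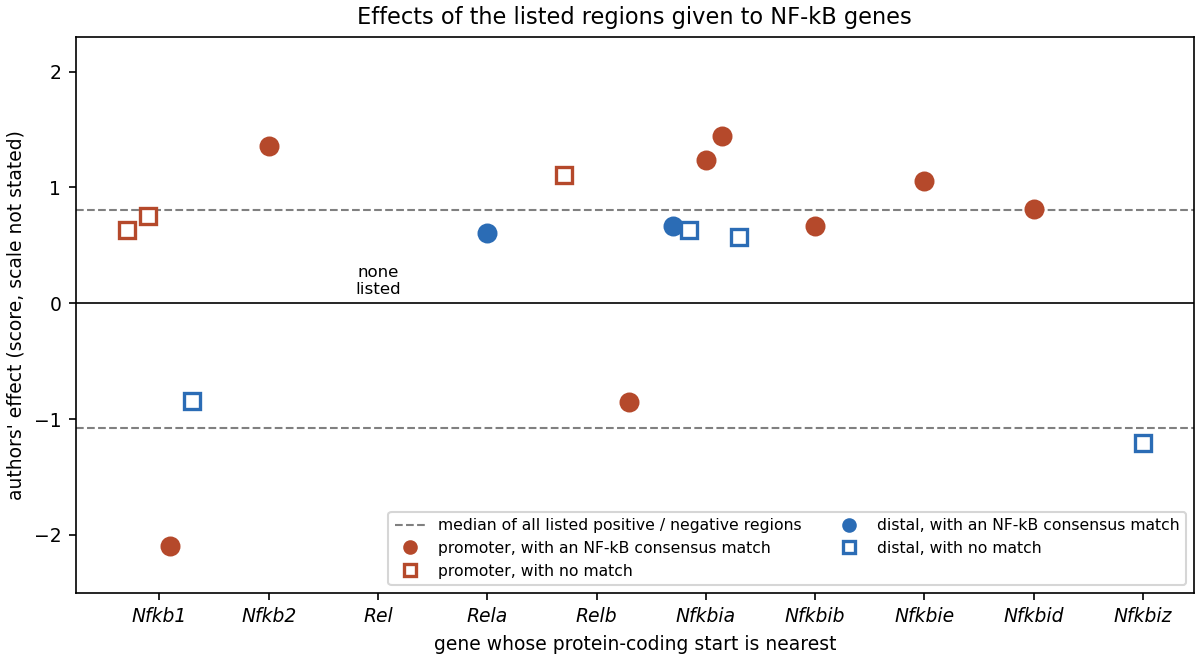
Authors' effect (vertical axis, score) of each of the 17 regions, 1 mark per region, by gene along the horizontal axis, coloured by promoter or distal class, filled where the region held an NF-kB consensus match, with dashed lines at the medians of all positive (0.80) and all negative (-1.07) regions. Every region of the cytoplasmic inhibitors Nfkbia, Nfkbib and Nfkbie lay above 0, between 0.57 and 1.44, and the 4 negative regions belonged to Nfkb1, Relb and Nfkbiz. Of all listed regions, 80.7% lay above 0.

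The cytoplasmic inhibitors had 7 regions, all positive, with a median effect of 0.67, where 80.7% of all listed regions were positive. For all but the Nfkbia intron 1 region, listed regions of the same class and 5-point GC band were positive in 90.6% to 98.3%. For that intron region the share was 19.3%. Nfkbia encodes IkB alpha, the inhibitor that is destroyed and remade fastest. It had 5 of the 7 regions, more than any other of the 10 genes had. The region over its start (chr12:55492276-55492925, 650 bp, centre 47 bp inside the gene in the 5′ UTR exon) had an effect of 1.44 (adjusted p 5.5e-09). This was the highest of the 17 effects, and 12.3% of all positive regions were higher. A second region in intron 1 (chr12:55491726-55492125, 400 bp, 722 bp from the start) had an effect of 1.24 (adjusted p 0.000229). The start region and the intron region were 150 bp apart, both were positive, and each held 2 NF-kB sites, those shown in capitals above.

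The other 3 regions given to Nfkbia were distal and weaker. A region 6541 bp upstream (chr12:55498951-55499425), in an exon of the non-coding gene Gm36634, had an effect of 0.57 with an adjusted p of 0.00146. The regions 25984 bp (chr12:55466201-55467125) and 45734 bp (chr12:55446526-55447300) downstream of the start were intergenic, with effects of 0.63 (adjusted p 0.00989) and 0.67 (adjusted p 0.00133). The first of these was close to the listing threshold. Of the 3 distal regions, the farthest held an NF-kB site, GGGAGTTTCCC. The effects of the distal regions were all below 0.80, the median of all positive regions, and both regions near the start were above it.

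Nfkbie encodes IkB epsilon, an inhibitor that acts later than IkB alpha, and Nfkbib encodes IkB beta, a more stable one. The Nfkbie region lay over the start (chr17:45555501-45555975, 475 bp, centre 27 bp downstream of the nearest protein-coding start) with an effect of 1.05 (adjusted p 1.13e-06), and 24.8% of positive regions were higher. The Nfkbib region (chr7:28766176-28766875, 700 bp, centre 11 bp upstream of the nearest start, in the 5′ UTR exon of a longer transcript) had an effect of 0.67 (adjusted p 0.000548), and 75.1% of positive regions were higher. Each of these start regions held 1 NF-kB site. The site of Nfkbie, GGGGGATTCC, began 117 bp upstream of its nearest protein-coding start. That of Nfkbib, GGGGAATTCCC, began 2 bp upstream.

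The precursor subunits had 5 regions, of which 3 were positive. The regions over their protein-coding starts had opposite signs. Nfkb2, the gene of p100 and p52, had a single region, the widest of the 17 (chr19:46304301-46305750, 1450 bp). Its centre lay in intron 1, 225 bp downstream of the nearest of the gene's 4 protein-coding starts. Its effect was 1.36 with an adjusted p of 3.85e-08, and 13.6% of positive regions were higher. It held 5 NF-kB sites, more than any other of the 14973 listed regions. GGGAATTCCCC and GGGGCTTTCC began 102 and 74 bp upstream of that nearest start, inside the gene, within an exon of a longer transcript. GGGAAACTCC, GGAATGTCCC and GGGACTTTCC began 536, 659 and 905 bp downstream of the same start.

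Nfkb1, the gene of p105 and p50, had 4 regions, 2 negative and 2 positive. The region at its start (chr3:135691351-135691775, 425 bp, centre 17 bp upstream) had the lowest of the 17 effects, -2.09, with an adjusted p of 3.08e-10. Among all 2890 negative regions it ranked 217, and 7.47% were lower. It held the NF-kB site GGGAATTTCC, 30 bp inside the gene in the 5′ UTR. A second negative region 8679 bp upstream (chr3:135699726-135700725, 1000 bp) was intergenic, with an effect of -0.84 (adjusted p 0.000392). Both positive regions lay deep inside the gene, near starts annotated for shorter transcripts. The region in intron 15 (chr3:135604451-135605150) lay 941 bp from such a start and 62999 bp from the nearest protein-coding start. Its effect was 0.75 with an adjusted p of 0.000287. The region in intron 18 (chr3:135594201-135594600) lay 41 bp from such a start and 73399 bp from the nearest protein-coding start. Its effect was 0.63 with an adjusted p of 0.00101. Nfkb1 has 2 protein-coding starts, and both of these distances are to the inner one, not to the start beside the lowest effect.

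The upstream negative region of Nfkb1 had no NF-kB site. An AP-1 consensus (TGANTCA, searched on both strands) lay near its centre. Over all listed distal regions, 27.8% held this consensus in the central 300 bp. It is also present, unmarked, in the Nfkbie upstream and Nfkb2 intron 1 stretches above, which are from positive regions. The 300 bases around the Nfkb1 match (chr3:135700093-135700392, minus strand, GRCm38) are shown with the AP-1 match in capitals. The region was chosen because it is the only negative distal one given to a subunit gene.
Nfkb1 far upstream: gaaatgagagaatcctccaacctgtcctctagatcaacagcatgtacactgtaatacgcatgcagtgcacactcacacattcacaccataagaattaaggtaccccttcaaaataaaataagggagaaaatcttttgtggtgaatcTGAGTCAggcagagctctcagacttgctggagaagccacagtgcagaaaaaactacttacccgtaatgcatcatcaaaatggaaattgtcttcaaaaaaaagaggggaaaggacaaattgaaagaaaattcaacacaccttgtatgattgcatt

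The Rel subunits had 3 regions, 2 of them positive. Relb, whose product pairs mainly with p52 in the non-canonical pathway, had a pair of regions of opposite sign that were 150 bp apart. The region in intron 1 (chr7:19628376-19629300, 925 bp, 600 bp from the start) had an effect of 1.11 (adjusted p 3.33e-07), and 21.7% of positive regions were higher. The region just upstream of the start (chr7:19629451-19629525, 75 bp, centre 50 bp upstream) had an effect of -0.85 (adjusted p 5.84e-06). The upstream region held an NF-kB site, GGGGAATTCC, 24 bp upstream of the start, and the positive region held none. The 300 bp around the centre of the upstream region, which take in flanking bases, held 2 sites. The fragments in the reporter were longer than the upstream region, so those that covered it also carried flanking bases. Whether the sites have a part in the opposite signs was not tested. Over all listed regions, 63 of 729 pairs less than 500 bp apart had opposite signs (8.64%). Regions of at most 75 bp were 5.18% of those listed, and 30.5% of these 776 narrow regions were negative.

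Rela encodes RelA (p65), the main activating subunit of the canonical pathway, and had no listed region at its start. Its only region was intergenic (chr19:5648601-5649450, 850 bp), 11542 bp downstream of the start and beyond the end of the gene. It had an effect of 0.61 (adjusted p 0.00455), and 86.4% of positive regions were higher. It held the site GGGAAACCCC, the same letters as the farther of the sites upstream of Nfkbia. The nearest annotated start of any gene was 3251 bp away and belonged to Sipa1.

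Rel encodes c-Rel, a subunit found mostly in lymphoid and myeloid cells, and was the nearest gene of no listed region (chr11:23736847-23770970). Within 100 kb of its start there were 2 listed regions, each nearer to another gene. A region 71020 bp away (chr11:23699701-23700200) was given to Pus10 and had an effect of -1.13. Another, 84593 bp away (chr11:23855426-23855700), was given to Papolg and had an effect of 0.58.

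The nuclear inhibitors bind NF-kB dimers on DNA and can raise or lower the transcription of a target. Nfkbid, the gene of IkB-NS, had a region at its start (chr7:30421576-30422500, 925 bp, centre 306 bp inside the gene in intron 1) with an effect of 0.81 (adjusted p 0.000113). This was near the middle of the positive regions, of which 48.8% were higher. Its 2 sites, GGGACTTCCC and GGAATTCCCC, began 448 and 493 bp inside the gene. Nfkbiz, the gene of IkB zeta, had a single negative region, which was intergenic (chr16:55722901-55723525), with an effect of -1.21 (adjusted p 0.00173). It lay 98925 bp from the nearest of the gene's 3 protein-coding starts, and more than 100 kb from the outermost one. The nearest annotated start of any gene was 16705 bp away and belonged to Gm19771.

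The Nfkbiz region was also the farthest inside the 100 kb limit. The next regions beyond the limit were 2 whose nearest protein-coding gene was also Nfkbiz. The nearer of them was 156100 bp away with an effect of -0.82. The other was 257400 bp away with an effect of 1.13, and 92.9% of its bases were masked as repeats. All 17 regions within the limit were single-copy in the genome, and at most 19.3% of the bases of any of them were masked.

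**Figure D2:**
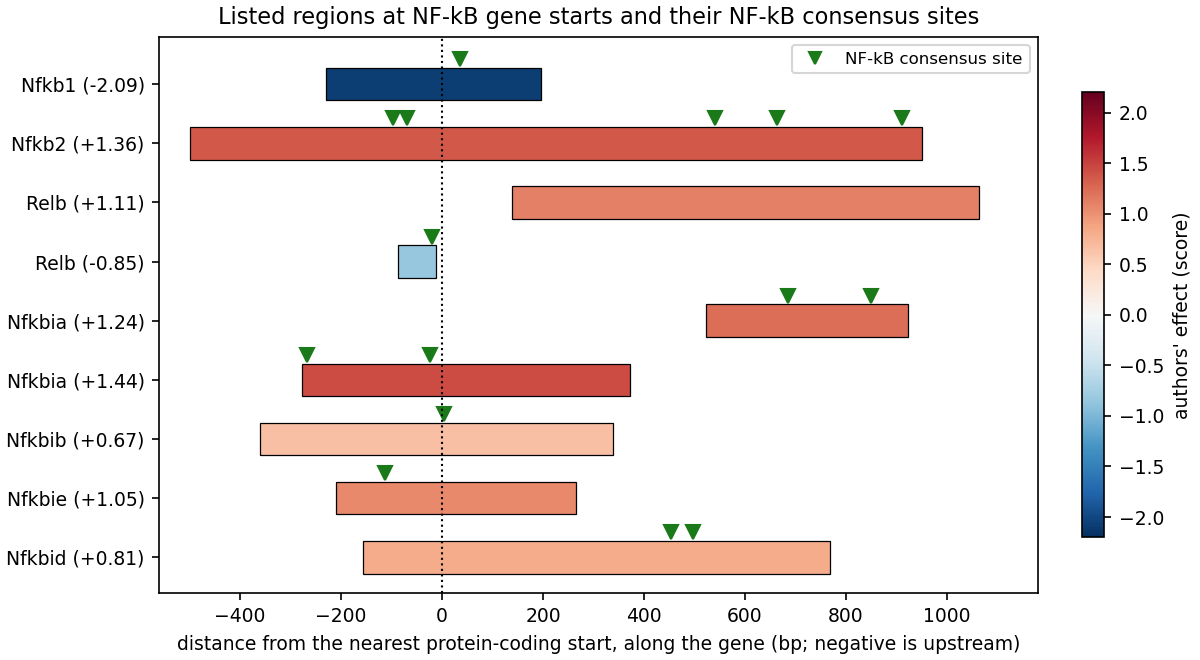
Position (horizontal axis, bp from the nearest protein-coding start along the gene, negative upstream) of the 9 regions centred within 1000 bp of that start, 1 bar per region, coloured by the authors' effect, with triangles at NF-kB consensus sites. The regions of 7 genes are drawn to scale, 8 of the 9 bars carry at least 1 site, and the negative bars of Nfkb1 and Relb carry 1 each.

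Of the 15 consensus sequences searched, that of NF-kB gave the widest gap, in percentage points, between these regions and all listed regions. In whole regions, 10 of 17 (58.8%) held at least 1 site, against 13.7% of all listed regions. Among promoters the figures were 8 of 11 against 15.6%, and among distal regions 2 of 6 against 11.3%. In the central 300 bp, a window of 1 length for every region, 8 of 17 (47.1%) held a site against 7.27% of all listed regions. For a region narrower than 300 bp, such as that upstream of Relb, the window takes in flanking bases. At least 2 sites were found in 4 of the regions, and in 226 (1.51%) of all listed regions. In all there were 17 sites in 10 regions of 8 genes, and 15 of the sites lay within 1000 bp of a protein-coding start. These are descriptions of letters, and binding of the factor was not measured.

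Read on either strand, with a site and its reverse complement taken as 1 sequence, the 17 sites were 12 different sequences, and 5 of these were found at 2 genes each. The site nearest the Nfkbia start, GGAAATTCCC, is the Nfkb1 site GGGAATTTCC on the other strand, though the start regions of these genes had effects of 1.44 and -2.09. The Nfkbia intron site GGAAAGTCCC is likewise GGGACTTTCC of Nfkb2, GGGGAATTCC of Relb is GGAATTCCCC of Nfkbid, and GGGGAATTCCC of Nfkbib is GGGAATTCCCC of Nfkb2. GGGAAACCCC had the same letters on the gene's strand at Nfkbia and Rela. The same consensus was present from 250 bp upstream to 50 bp downstream of 13 of the 20 protein-coding starts of the 10 genes, against 4.83% of 41469 such starts in the genome. Starts of 1 gene can lie close together and share these bases. Every gene but Rela had at least 1 such start, so that Rel and Nfkbiz carried the consensus at a start without a listed region there.

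Regions with and without a site were set side by side for direction, with no test. Of the 10 regions with a site 8 were positive, and of the 7 without a site 5 were positive. Over all listed regions, 80.4% of the 2052 with a site were positive, close to the 80.7% of the whole table. The regions over the protein-coding starts of Nfkb1 and Nfkb2 both held NF-kB sites and had effects of -2.09 and 1.36.

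Other consensus sequences were nearer to the background. In the central 300 bp the SP consensus (GGGCGG) was found in 9 of 17 regions against 42.1% of all listed regions, and 8 of these 9 were promoters, where the share over all promoters was 63.6%. RUNX (TGTGGT) was found in 5 regions against 18.4%, and 4 of them were distal, of 6 distal regions, against 26.8% of all distal regions. AP-1 was found in 2 regions against 15.4%, and NFY (CCAAT) in 2 against 31.9%. The ETS (CCGGAAG) and E-box (CACGTG) consensus sequences were found in 2 regions each, against 9.29% and 7.07%. STAT (TTCNNNGAA) was found in 1 against 10.3%, CRE (TGACGTCA) in 1 against 2.04%, IRF in 1 against 4.75% and NRF1 in 1 against 0.875%. The octamer (ATGCAAAT), YY1 and CTCF were found in none of the 17 windows, against 1.58%, 0.928% and 0.842%. A loose NF-kB consensus, which fixes only the outer G and C bases and so takes in every site of the main one, was found in 12 regions against 58.2%. The side of the background on which AP-1 lay depended on the window. In the central 600 bp AP-1 was found in 5 of 17 regions (29.4%) against 21.7%. In whole regions it was found in 6 (35.3%) against 22.2%. STAT, E-box and IRF also changed side between windows.

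**Figure D3:**
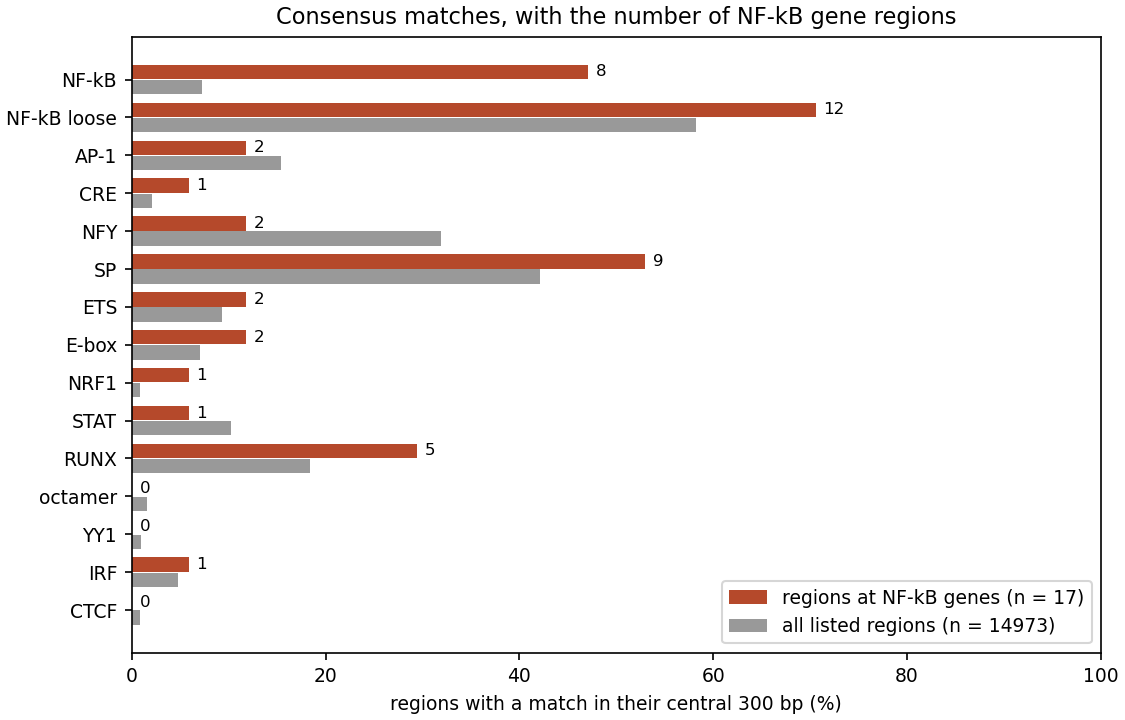
Share of regions (horizontal axis, percent) with each consensus in the central 300 bp, for the 17 regions at NF-kB genes beside all 14973 listed regions, 1 row per consensus, with the number of the 17 regions beside each bar. The NF-kB consensus was found in 47.1% of the regions at NF-kB genes and in 7.27% of all listed regions.

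Base composition moved with direction over the whole table, promoters and distal regions together, with a median GC share of 67.3% in negative and 55.5% in positive regions. At the NF-kB genes the median GC content was 58.3%, against 56.5% over all listed regions, and the median width was 700 bp against 625 bp. The Nfkb1 start region was 74.1% GC, and of the 814 listed promoter regions between 70% and 75% GC, 80.7% were negative. The Nfkbia intron region fell in the same band with 72.5% GC and was positive, as were 19.3% of those regions. The narrow negative region of Relb was 68.0% GC, and 41.2% of the 1745 promoter regions between 65% and 70% GC were negative. The negative distal regions of Nfkb1 (41.9% GC) and Nfkbiz (40.3% GC) lay between 40% and 45%, where 33.9% of 1072 distal regions were negative. The part of base composition in these effects was not tested.

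**Figure D4:**
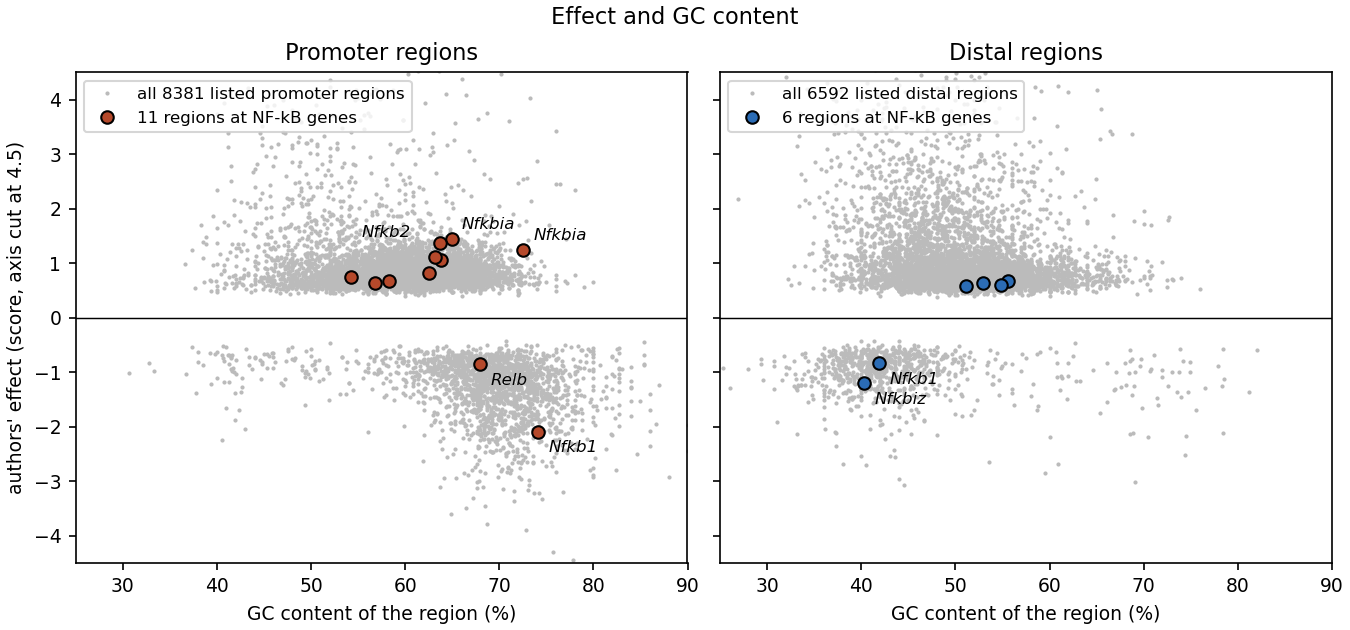
Authors' effect (vertical axis, score) against GC content (horizontal axis, percent) of promoter regions on the left and distal regions on the right, with all listed regions as grey dots and regions at NF-kB genes as filled circles. The axes are cut at an effect of 4.5 either way and at 25% and 90% GC, which leaves out 110 grey dots. Between 70% and 75% GC lie Nfkbia at 1.24 and Nfkb1 at -2.09.

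The rest of the pathway was followed through 62 other genes in 5 groups. Of these 45 had a listed region, where 43.0% of all protein-coding genes had one. They had 90 regions in all, 70 of them positive (77.8%, Wilson 95% interval 68.2 to 85.1) and a median effect of 0.66. An NF-kB site was found in 25 of the 90 whole regions, against 13.7% of all listed regions. It was found in 17 of their central 300 bp windows, against 7.27%. The positive share over all 90 was close to the 80.7% of the whole table. The positive shares of the groups ran from 55.6% for the IkB kinases and their activators to 89.7% for textbook targets. The same backgrounds, 43.0% of genes with a region and 80.7% of regions positive, stand beside every group count below.

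Upstream of the inhibitors, the IkB kinases and their activators had regions at 6 of 10 genes, and 10 of these 18 regions were positive (55.6%, Wilson 95% interval 33.7 to 75.4), with a median of 0.57. The share over the whole table was 80.7%, and this group had the lowest share of the 5. The interval counts regions as independent, which regions of 1 gene are not, so it is no test against that share. Of the 18 regions 8, with 5 of the 8 negative ones, were given to Tab2. The kinase subunit genes Chuk, Ikbkb and Ikbkg had no listed region, nor did Tab1. The highest effects were those of a region 22297 bp from the start of Map3k7, the gene of the kinase TAK1 (1.88), and of a region of Tab2, which encodes a TAK1 partner (1.27). The lowest were at the starts of Tbk1, an IkB kinase relative (-2.04), and of Tab3, another TAK1 partner (-1.24).

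In the route from the T cell receptor, 8 of 9 genes had a region. Of the 17 regions 13 were positive, against 80.7% of all listed regions, with a median of 0.69. Ube2n, a ubiquitin-conjugating enzyme, had none. Casp8, a caspase that also takes part in antigen receptor signalling, had the highest effect, 1.33, in a region with 2 copies in the genome, 54460 bp from its start. Ube2v1, the partner of Ube2n, followed with 1.11. Among the negative regions was one of Prkcq, the gene of the kinase PKC theta, with an effect of -0.74.

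Adaptors of tumour necrosis factor receptors had regions at 7 of 11 genes. Of these regions 11 of 13 were positive, against 80.7% of all listed regions, and the median was 0.60. Ripk1, Tradd, Rnf31 and Sharpin had none. The start region of Birc3, which encodes the ubiquitin ligase cIAP2, had an effect of 2.24, the highest of the 90, and held 2 NF-kB sites. The Traf5 start region had an effect of 1.28. Both of the lowest values, -1.72 and -1.46, came from neighbouring regions at the start of Traf3, which encodes an adaptor that restrains the non-canonical pathway.

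The brakes and nuclear cofactors had regions at 7 of 12 genes. Of these regions 10 of 13 were positive, against 80.7% of all listed regions, and the median was 0.78. Nfkbil1, Nkrf, Pdlim2, Commd1 and Nkiras1 had none. Tnfaip3, the gene of the ubiquitin-editing enzyme A20, had both the highest value, 1.36 at 53165 bp from its start, and the second lowest, -0.89 at 18788 bp. Nkiras2, a small GTPase that slows the breakdown of IkB beta, had an effect of 1.21. The lowest value was at the start of Otulin, a deubiquitinase for linear chains, with -1.14.

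Textbook target genes of NF-kB had regions at 17 of 20 genes, and 26 of their 29 regions were positive (89.7%, Wilson 95% interval 73.6 to 96.4), with a median of 0.73. The interval spans the 80.7% of the whole table. Ccl3, Ccl4 and Sod2 had no region. The highest effects were those of Junb, an AP-1 subunit (1.87, with 4 NF-kB sites in the region), and of Ccl5, a chemokine of effector T cells (1.48, with 1 site). The negative regions belonged to Csf2, which encodes GM-CSF (-1.02), to Irf4 (-0.80) and to Il2 (-0.71). Il2 is outside the naming rule and was named after its value was seen. Sites were found in 12 of the 29 whole regions, against 13.7% of all listed regions.

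**Figure D5:**
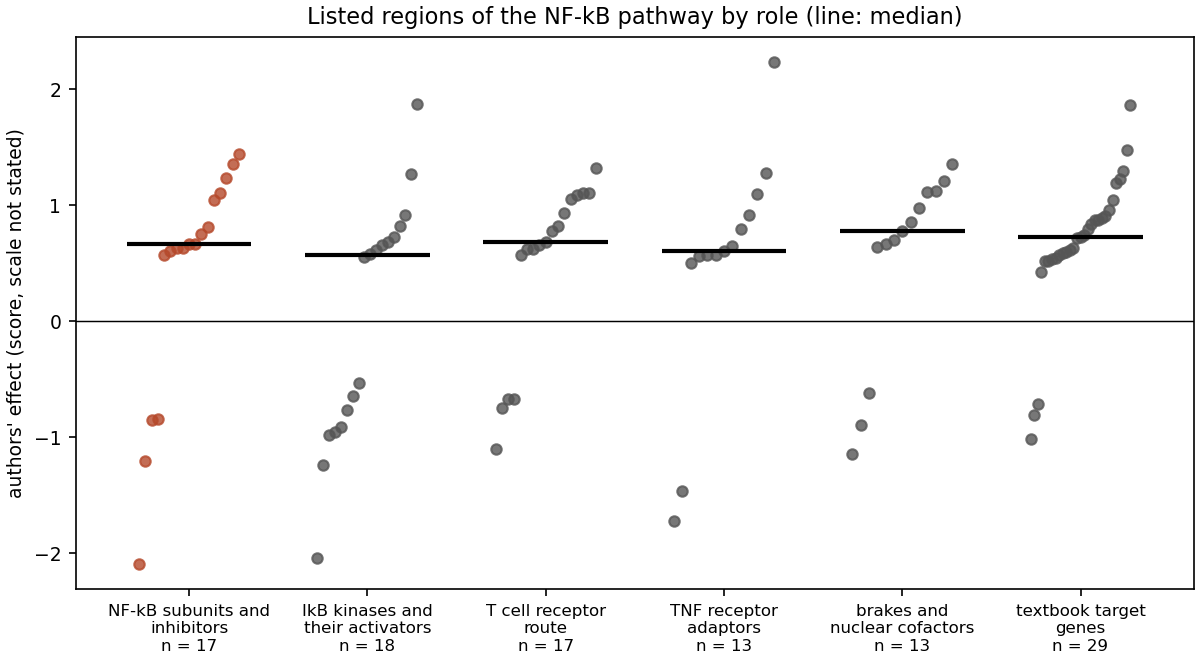
Authors' effect (vertical axis, score) of the 17 regions at NF-kB subunit and inhibitor genes and of the 90 regions of 5 other groups of NF-kB pathway genes, 1 point per region in order of effect within a group, with a line at each group's median. Positive regions were 13 of 17 at the subunit and inhibitor genes, 10 of 18 for IkB kinases and their activators and 26 of 29 for textbook targets. Of all listed regions, 80.7% were positive.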

How the data were processed

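Activity was measured by STARR-seq in 2 Th1 output libraries. Per the file headers, the deposited region table rests on mm10 alignments of the libraries combined. No source used here names its aligner, caller or test. The columns that the authors deposited are a signed effect, which is a score of unstated scale, with its p-value and its q-value, called adjusted p here. Depth per library is unknown, and no interval on an effect was computed. Region width equals end minus start plus 1, so that starts count from 1. The input library was not used here.

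Nearest starts came from GENCODE M21 (basic protein-coding transcripts, within 100 kb) and sequence from GRCm38, read with Python 3.11.15, pandas 2.3.3, pysam 0.24.0 and samtools 1.23.1. Shares leave out 21 regions that lie on other scaffolds. Copies were matches of at least 95% identity over 240 bp of the central 300 bp, found with minimap2 2.31-r1302. Multiplying q by the rank of p and dividing by p gave 114722 tested regions for 82.2% of listed regions. Members are counts and medians, with no test over the list. The 15 consensus sequences were searched on both strands, and the search and the assignment to genes were tested on simulated data.

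Every region of the 10 genes is named; of the other pathway genes, the 2 highest and 2 lowest effects in each group are named, and neighbouring genes are named where a region within 100 kb of a member's start was given to them. Another pathway gene that this rule would name is not reported here. The genes, lists and rules were chosen with earlier results of these data known. Alternatives were an adjusted p under 0.001, an absolute effect of at least 1, distances of 50 and 20 kb, merged regions, other sets of starts, promoter windows of 500 and 2000 bp, single-copy regions and wider consensus windows.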

Additional observations from a re-analysis of the deposited data

How the results depend on the processing

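With an adjusted p under 0.001, 11 regions at NF-kB genes were left, 8 of them positive, and 58 pathway regions, 45 of them positive with a median effect of 0.83. With an absolute effect of at least 1, 7 regions at NF-kB genes were left, 5 positive, with a median of 1.11 and 6 promoters, and 27 pathway regions, 20 positive, with a median of 1.11. Both settings keep fewer regions by construction, and 4 further values under them stayed within the limits given next. All 51 values over the distances, merging, sets of starts, promoter windows, single-copy regions and consensus windows stayed within 1.5 times or within the interval of the value reported, and none changed sign. Among these values, the consensus windows were compared for the main NF-kB consensus only. Counting only the outermost start of each gene, an alternative chosen after seeing the data, left 9 promoters, 7 of them positive, since the internal starts of Nfkb1 no longer counted. No paired analysis was possible because the table combines both libraries, and for the same reason neither library could be left out. The depth is unknown, so a gene without a listed region cannot be told from one that was too thinly covered.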

Other observations

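Within 100 kb of a start of the 10 genes there were 32 regions given to a neighbour, 30 positive and 2 negative, where 80.7% of all listed regions were positive. Around Nfkbib 7 of 7 were positive, and the region at the start of Sars2, a mitochondrial seryl-tRNA synthetase, had an effect of 1.65, above the 0.67 of Nfkbib itself. Around Rela 9 of 9 were positive with effects between 0.59 and 0.94, among them 3 at the start of Sipa1 (0.61, 0.69 and 0.79), and all 4 around Nfkb2 were positive with effects up to 0.90 at Actr1a. Around Nfkbid the effects ran from -1.16 at Aplp1 to 1.53 at E130208F15Rik. The regions around Relb were given to Clptm1 (0.81 and 0.90) and Tomm40 (1.16), that near Nfkbia to Psma6 (0.86), and those near Nfkbie to Slc35b2 (0.71) and Capn11 (0.64).

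Of all listed regions, 6 held at least 4 NF-kB sites, among them the Nfkb2 region with 5 and the Junb region with 4.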
